A study of Mus musculus with 12 samples.

Results

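The genes described here are 10 members of the interleukin-6 (IL-6) cytokine family and of the STAT3 signal it starts. They were taken by symbol from the 24421 gene symbols of the deposited tables. They are the ligands *Il6*, *Il11*, *Lif* and *Clcf1*, the receptor chains *Il6st*, *Osmr*, *Il6ra* and *Lifr*, the transcription factor *Stat3* and the inhibitor *Socs3*. For a symbol with several transcripts, the transcript with the highest total count was used.

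Whole kidneys of 12 male mice, 1 library per mouse, were measured by RNA-seq in groups of 3. The mice were C57BL/6 by the labels (C57BL/6J in the study's methods) and 6 weeks old, and were either wild type (WT) or Tet2-/-. Baseline mice of each genotype were healthy controls without an operation. IR mice of each genotype had the vessels of the right kidney clamped for 60 min (ischemia), then had the left kidney removed, and were studied after 24 h of reperfusion. A comparison of IR with baseline therefore includes the surgery and the loss of the other kidney, and sham-operated mice were not analysed here. The Tet2-/- mice were bred from Tet2+/- parents, and no tissue-specific driver is named, so the label applies to kidney cells and blood cells alike. *Tet2* encodes an enzyme that oxidises methylated cytosine in DNA.

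Cytokines of this family share the receptor chain gp130, encoded by *Il6st*. Their receptors also use further chains, such as IL-6Rα for IL-6, LIFR for LIF and OSMR for oncostatin M, and some of these serve several ligands. Bound receptors activate the kinases JAK1, JAK2 and TYK2, which phosphorylate STAT3. Phosphorylated STAT3 enters the nucleus and turns on target genes, among them *Socs3*, whose protein blocks the receptor and its kinases. In the kidney the pathway is known from acute injury, in which tubule cells and infiltrating leukocytes make and answer these cytokines. RNA-seq measures transcripts only, so neither phosphorylation of STAT3 nor protein was measured.

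Total counts on the transcripts used ran from 51007366 to 107969888 per library. Levels below are FPKM (fragments per kilobase of transcript, scaled to library size), a scale on which genes of different length can be compared. Fold changes are given on the log2 scale with their standard error (SE) and come from edgeR's quasi-likelihood test on counts, and a gene is said to be higher, lower or changed at an adjusted p under 0.05. With 3 libraries against 3, the smallest two-sided p that an exact permutation test allows for 1 gene is 0.1. *Tet2* transcript was not lower in the baseline libraries labelled Tet2-/- (7.58 ± 1.47 FPKM in WT and 12.1 ± 4.0 FPKM in the labelled libraries, SD, n = 3 each, log2 fold change 0.76, adjusted p = 0.321 by the edgeR quasi-likelihood F test). After IR it was 5.72 ± 3.13 and 2.53 ± 0.723 FPKM (SD, n = 3 each, log2 fold change −1.28, adjusted p = 0.069 from the same test). The deleted part of the gene is not given in the sources used here, and genotype directions follow the labels. Proximal tubule markers (8 genes) summed to 862 to 4471 FPKM per library, so kidney tissue was seen in each. Adipocyte markers (6 genes) stood apart in WT baseline replicates 2 and 3 (39.1 and 124 FPKM in sum) and in Tet2-/- IR replicate 3 (156 FPKM), against 0.14 to 8.2 FPKM in the other 9 libraries. With library sizes alone in place of edgeR's TMM scaling, the median log2 fold change over all genes moved from 0.04 to 0.27 for IR against baseline in the labelled Tet2-/- libraries, from 0.04 to 0.14 between the genotypes after IR, and from 0.10 to 0.24 for the interaction. The calls over all genes moved with it, from 3741 higher and 3313 lower to 5275 and 2299 in the first, from 568 and 999 to 802 and 784 in the second, and from 634 and 902 to 1128 and 700 in the third. The members' fold changes below are on the TMM scale, whereas levels and overlaps in FPKM are scaled by library size alone.

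Before the values, the DNA just upstream of the members' transcripts is shown where it holds a motif of the pathway. In the 300 bases upstream of each transcript start (build mm9), the STAT palindrome TTCNNNGAA was found for 1 of the 10 members, *Socs3*, and in 8.21% of the 24203 windows of all genes. The AP-1 motif TGANTCA, which Fos and Jun proteins bind and which reads the same on either strand except for its middle base, was found for 2 of 10, *Il6* and *Il11*, and in 7.21% of all windows. Both motifs were searched on both strands. The stretches of 100 bases that hold them are printed 5′ to 3′ on the gene's strand, with the motif in capitals, because they are the members in which either motif was found. Positions are bases upstream of the transcript start. The motif lies at 249 to 243 in *Il6* (window chr5:30339358-30339457, plus strand), at 98 to 92 in *Il11* (chr7:4729789-4729888, minus strand) and at 154 to 146 in *Socs3* (chr11:117830781-117830880, minus strand). The *Il11* window lies in an intron of a longer *Il11* transcript. A match is a description of the letters, and binding was not measured.
Il6: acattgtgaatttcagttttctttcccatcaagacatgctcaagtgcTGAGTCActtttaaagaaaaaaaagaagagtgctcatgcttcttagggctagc
Il11: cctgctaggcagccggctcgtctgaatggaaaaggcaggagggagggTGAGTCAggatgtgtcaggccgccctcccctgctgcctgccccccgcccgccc
Socs3: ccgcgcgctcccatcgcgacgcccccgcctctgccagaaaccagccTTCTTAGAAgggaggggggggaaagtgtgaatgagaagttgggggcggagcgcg

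Most of the 10 members were higher after IR than at baseline in the libraries labelled Tet2-/-. In WT libraries most of the same genes had positive fold changes that did not pass the test. In the labelled Tet2-/- kidneys 9 of the 10 members were higher after IR than at baseline and 1, *Lifr*, was lower (background over all 16359 genes tested 22.9% higher and 20.3% lower), and 8 of the 9 also passed a log2 fold change of 1 (background 12.7%). In WT kidneys none of the 9 members tested passed edgeR's quasi-likelihood test (background 1.88% higher and 1.14% lower of 16015 genes). At a raw p under 0.05, 5 of these were higher and 1 lower, as many as DESeq2 called, while limma on log2(FPKM + 1) or log2(FPKM + 0.1) called 0. Between the genotypes after IR, *Il6*, *Il11* and *Clcf1* were higher in the labelled Tet2-/- libraries and no member was lower (background 3.51% and 6.17% of 16186 genes). Of these, *Il6* passed the filter on low counts only in comparisons that hold the labelled Tet2-/- IR libraries. It had 297, 170.5 and 65 counts there and at most 9 in any other library. Both calls of *Il6* counted here are thus not independent of its level in that group. *Il6* is among the genes that the study itself picked from these libraries, so its count is not independent evidence of its direction. At baseline none of 9 members differed between the genotypes by edgeR's quasi-likelihood test (background 0.0124% higher and 0.0% lower of 16086 genes). There 1 member was higher and 2 were lower at a raw p under 0.05, DESeq2 called 2 lower, and limma called 0. The median log2 fold change of the members tested was 2.75 after IR in the labelled Tet2-/- kidneys (all genes 0.04), 1.10 after IR in WT kidneys (all genes −0.03), 1.65 between the genotypes after IR (all genes 0.04) and −0.06 between them at baseline (all genes 0.00). The 3 genes higher after IR also passed the fold limit (background 2.3%), and in WT kidneys, where the background with this limit was 1.46% higher and 0.887% lower, 0 did. Of the members tested, 9 of the labelled Tet2-/- kidneys lay above their baseline in FPKM without overlap and 1 below (background 40.5% and 17.9%), against 4 and 1 in WT kidneys (18.9% and 10.4%). Between the genotypes, 7 members lay above without overlap after IR and 0 below (22.0% and 14.6%), and at baseline 0 lay above and 3 below (3.06% and 16.5%). Of the 3 below, *Lifr* was so only by 5.891 against 5.894 FPKM. These comparisons share libraries, and their values are given side by side.

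**Figure D1:**
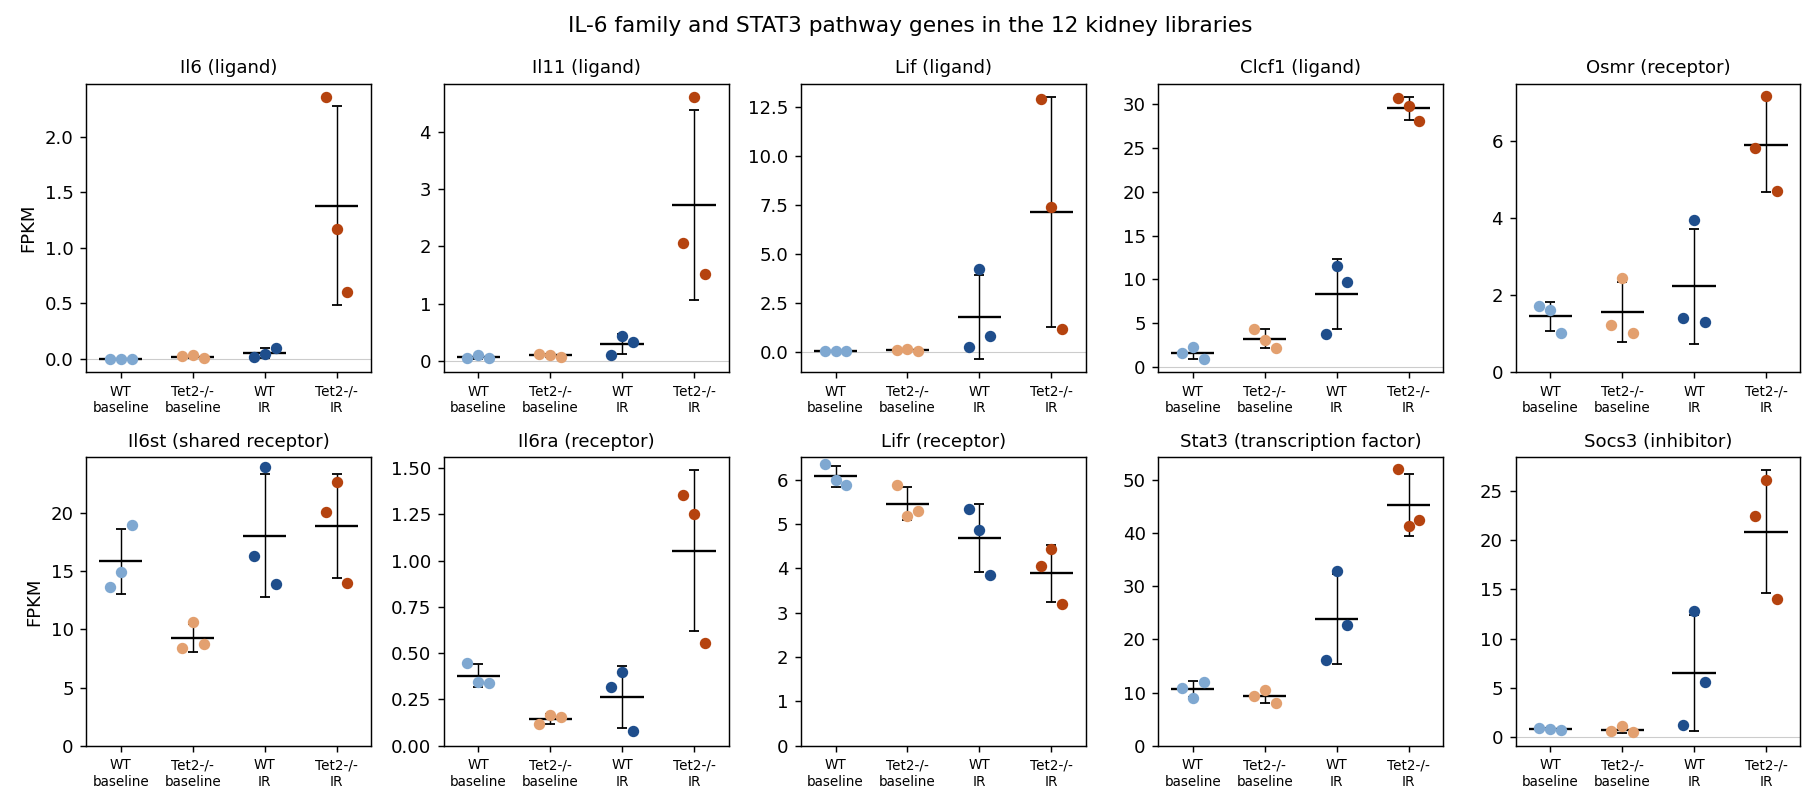
FPKM (linear axes) of the 10 genes in the 12 kidney libraries, 1 panel per gene, with a point per library, the group mean as a horizontal bar and the SD as a vertical bar (n = 3). The 4 ligands, Il6st, Osmr, Il6ra, Stat3 and Socs3 have their highest mean in the Tet2-/- IR group, and Lifr its lowest. There Il6st, Lif and Lifr overlap with WT IR.

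*Il6* encodes IL-6, the founding cytokine of the family (NM_031168, chr5:30339654-30346515, plus strand). Its FPKM was 0 in all 3 WT baseline libraries, and 0.024, 0.032 and 0.009 in the baseline libraries labelled Tet2-/-, replicates 1, 2 and 3 in this order here and below. In the IR groups it was 0.013, 0.046 and 0.101 in WT and 2.36, 1.17 and 0.607 in the labelled Tet2-/- libraries. All 3 of the latter lay above every other library, and in counts they held 297, 170.5 and 65 against 1, 4.5 and 9 in WT IR. *Il6* rose after IR in the labelled Tet2-/- kidneys (adjusted p = 0.000953 by the edgeR quasi-likelihood F test). The fitted log2 fold change was 5.53 (SE 0.71), whose size is uncertain because the baseline libraries held 2, 5.5 and 1 counts. Between the genotypes after IR the log2 fold change was 4.56 (SE 0.83, adjusted p = 0.0228). In WT kidneys *Il6* did not pass the filter on low counts. Against a floor of 3 counts per library (0.0284 FPKM) for the WT baseline, the WT IR mean of 0.0533 FPKM was at least 1.88-fold higher. This rests on replicate 3, without which the bound was 1.04-fold, and replicate 1 lay under the floor. The labelled Tet2-/- baseline mean, 0.0217 FPKM, lies under that floor like the WT baseline, so no fold is given between these groups.

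*Il11* encodes IL-11, a cytokine made by stromal and epithelial cells (NM_008350, chr7:4723980-4729743, minus strand). It had 0.053, 0.104 and 0.041 FPKM in WT baseline and 0.121, 0.108 and 0.066 FPKM in the labelled Tet2-/- baseline libraries, which overlap. After IR the values were 0.104, 0.435 and 0.335 FPKM in WT and 2.05, 4.61 and 1.51 FPKM in the labelled Tet2-/- libraries. WT IR overlapped WT baseline, whereas the labelled Tet2-/- IR libraries lay above the other 9. The log2 fold change after IR was 4.48 in the labelled Tet2-/- kidneys (SE 0.49, adjusted p = 0.000535, edgeR quasi-likelihood F test) and 2.06 in WT kidneys (SE 0.62, adjusted p = 0.121). After IR the genotypes differed by 3.08 on the log2 scale (SE 0.62, adjusted p = 0.0295), against 0.64 at baseline (SE 0.46, adjusted p = 0.572).

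*Lif* encodes leukemia inhibitory factor (NM_001039537, chr11:4166799-4172517, plus strand). Baseline levels were low in each genotype, at 0.073, 0.077 and 0.089 FPKM in WT and 0.132, 0.178 and 0.055 FPKM in the labelled Tet2-/- libraries. After IR the levels spread widely, with 0.299, 4.24 and 0.854 FPKM in WT and 12.9, 7.40 and 1.18 FPKM in the labelled Tet2-/- libraries. Every IR library lay above every baseline library, and the IR groups overlapped, since WT replicate 2 exceeded Tet2-/- replicate 3. *Lif* rose after IR in the labelled Tet2-/- kidneys (log2 fold change 5.58, SE 0.89, adjusted p = 0.00232 by the edgeR quasi-likelihood F test). In WT kidneys its log2 fold change of 4.41 had a SE of 0.96 and an adjusted p = 0.0607. With the replicate number as a block this became 3.67 with an adjusted p = 0.0264. The genotypes after IR differed by a log2 of 1.92 (SE 1.06, adjusted p = 0.277), within the spread of the libraries. WT IR replicate 2 weighed on these values, and without it the WT log2 fold change was 2.89 (adjusted p = 0.0904) and the genotype difference after IR 3.43 (adjusted p = 0.107), while that difference was 1.13 without Tet2-/- IR replicate 1 (adjusted p = 0.578, edgeR quasi-likelihood F test).

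*Clcf1* encodes cardiotrophin-like cytokine factor 1, a ligand of the CNTF receptor (NM_001310038, chr19:4214238-4223505, plus strand). Its baseline FPKM was 1.61, 2.33 and 0.959 in WT and 4.38, 3.09 and 2.24 in the labelled Tet2-/- libraries. Following IR, values were 3.81, 11.6 and 9.67 in WT and 30.6, 29.8 and 28.04 in the labelled Tet2-/- libraries. The last 3 values lay close together and above the other 9 libraries. The log2 fold change after IR was 2.94 in the labelled Tet2-/- kidneys (SE 0.23, adjusted p = 0.000173 by the edgeR quasi-likelihood F test) and 2.31 in WT kidneys (SE 0.49, adjusted p = 0.0563, and 0.0226 with the replicate block). Genotypes differed by 1.72 on the log2 scale after IR (SE 0.38, adjusted p = 0.0367) and by 1.07 at baseline, where the test did not pass (SE 0.36, adjusted p = 0.34).

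The 3 genotype calls after IR rested on all libraries of these groups. With 1 library left out, only *Clcf1* of these 3 was called without WT IR replicate 1, only *Il6* without WT IR replicate 3 or Tet2-/- IR replicate 2, and *Il6* and *Il11* without Tet2-/- IR replicate 3. All 3 calls were lost without WT IR replicate 2, where *Osmr* was called instead, and without Tet2-/- IR replicate 1, where no member was called. Each of the 3 log2 fold changes stayed positive, from 3.90 to 5.53 for *Il6*, from 2.55 to 3.40 for *Il11* and from 1.36 to 1.95 for *Clcf1*. With the adipocyte level as a covariate 1 member was called. DESeq2 called 6 members higher here, and a single fit of all 12 libraries 5.

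**Figure D2:**
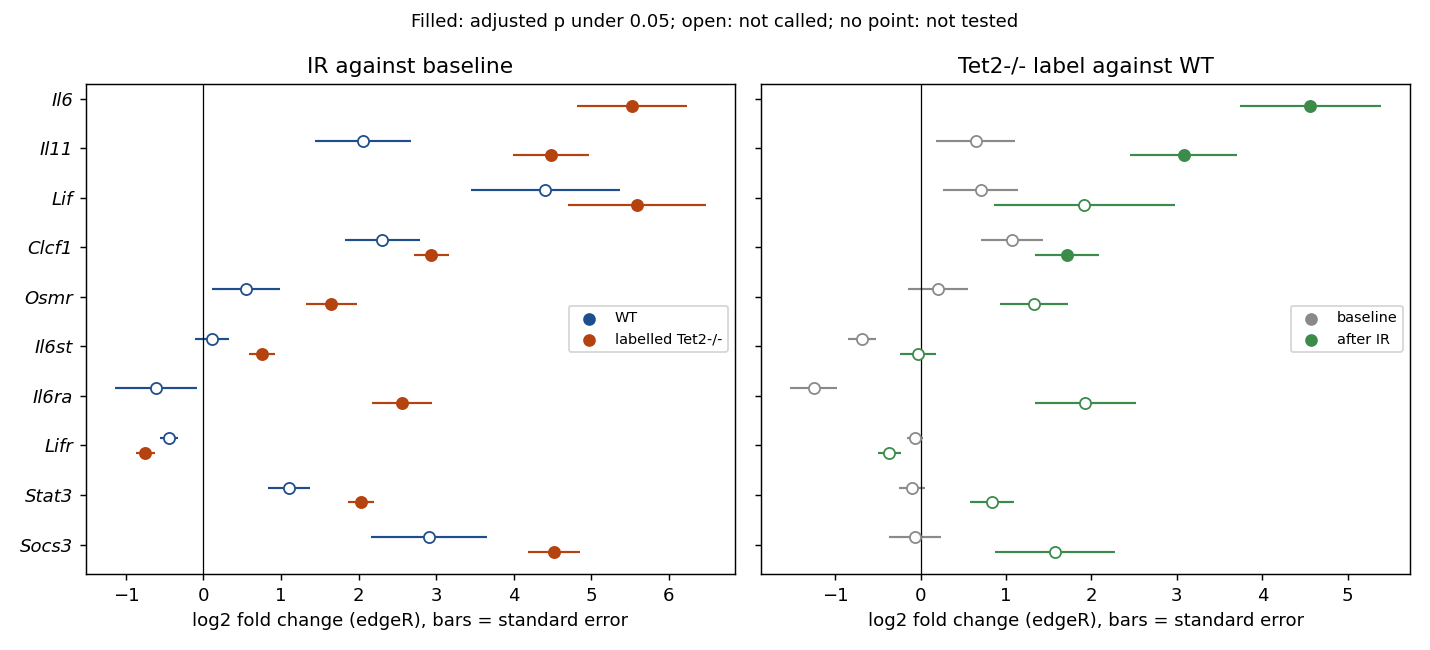
Log2 fold change (horizontal axis) of the 10 genes with the SE, from edgeR. Left, IR against baseline within each genotype, and right, the libraries labelled Tet2-/- against WT at baseline and after IR. Filled points passed an adjusted p of 0.05, and Il6 has no point in WT or at baseline, where it was not tested. In the left panel each red point of the labelled Tet2-/- kidneys is filled.

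Among the 4 receptor chains of the 10 genes, *Il6st*, which encodes the shared gp130 (NM_010560, chr13:113254278-113297068, plus strand), had the highest levels. Its FPKM was 13.6, 14.97 and 18.97 in WT baseline and 8.43, 10.7 and 8.75 in the labelled Tet2-/- baseline libraries, without overlap. The IR groups had 16.3, 23.99 and 13.9 in WT and 20.1, 22.7 and 13.99 in the labelled Tet2-/- libraries, which overlap almost fully. *Il6st* rose after IR in the labelled Tet2-/- kidneys by 0.76 on the log2 scale (SE 0.17, adjusted p = 0.0104, edgeR quasi-likelihood F test), less than the fold limit of 1. In WT kidneys the log2 fold change was 0.11 (SE 0.21, adjusted p = 0.797). At baseline the genotypes differed by −0.68 (SE 0.16, adjusted p = 0.239), and DESeq2 gave an adjusted p = 0.025 for this difference. After IR the log2 difference of −0.03 (SE 0.21, adjusted p = 0.945) turned positive with library sizes alone (0.073) or the upper quartile (0.002) as the scale.

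*Osmr* encodes the chain that oncostatin M and IL-31 receptors use (NM_001310469, chr15:6763577-6824313, minus strand). Levels were 1.71, 1.61 and 1.01 FPKM in WT baseline, 1.21, 2.45 and 1.02 FPKM in the labelled Tet2-/- baseline and 1.41, 3.96 and 1.3 FPKM in WT IR libraries. The labelled Tet2-/- IR libraries, at 5.83, 7.17 and 4.72 FPKM, lay above all of these. The log2 fold change after IR was 1.65 in the labelled Tet2-/- kidneys (SE 0.32, adjusted p = 0.00566 by the edgeR quasi-likelihood F test) and 0.55 in WT kidneys (SE 0.44, adjusted p = 0.497), where it turned to −0.10 without WT IR replicate 2. The genotypes after IR did not overlap, with a log2 difference of 1.33 (SE 0.40, background of higher genes without overlap 22.0%). It missed the limit by edgeR's quasi-likelihood test (adjusted p = 0.0796) and passed with DESeq2 (adjusted p = 0.0117) and, at 1.97, without WT IR replicate 2 (adjusted p = 0.0131).

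*Il6ra* encodes the ligand-binding receptor of IL-6 (NM_010559, chr3:89673246-89717118, minus strand). WT baseline libraries held 0.449, 0.345 and 0.338 FPKM, and the other baseline group, labelled Tet2-/-, 0.117, 0.168 and 0.155 FPKM, each below the WT values (background of genes below without overlap 16.5%). After IR it was 0.317, 0.398 and 0.078 in WT and 1.35, 1.25 and 0.557 in the labelled Tet2-/- libraries. The order of the genotypes was thus opposite at baseline and after IR, with log2 differences of −1.25 (SE 0.27, adjusted p = 0.224) and 1.93 (SE 0.59, adjusted p = 0.0844), neither of which passed edgeR's quasi-likelihood test. DESeq2 passed the first (adjusted p = 0.0033) and the second (adjusted p = 0.00669). IR raised *Il6ra* by 2.56 on the log2 scale in the labelled Tet2-/- kidneys (SE 0.39, adjusted p = 0.00187, edgeR quasi-likelihood F test). In WT kidneys the log2 fold change was −0.61 (SE 0.53, adjusted p = 0.531), or −0.19 without WT IR replicate 3, the library with the lowest summed fibroblast (11.2 FPKM) and endothelial (11.7 FPKM) markers, and −0.98 without WT IR replicate 2. The interaction term, which is the IR change in the labelled Tet2-/- kidneys minus that in WT kidneys, was 3.21 (SE 0.69, adjusted p = 0.0187, edgeR quasi-likelihood F test).

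*Il6ra* was the only member of 9 tested whose interaction passed this test (background 3.79% higher and 5.39% lower of 16741 genes, or 2.9% and 3.95% with the fold limit, which it also passed). *Il6* has no estimate there, since the WT baseline is at 0. The interaction of *Il11* was 2.45 (SE 0.80, adjusted p = 0.0753), and it passed with the replicate block (2.49, adjusted p = 0.0325), as *Il6ra* did. *Stat3* had 0.97 (SE 0.33, adjusted p = 0.0903). The other 6 ranged from −0.27 for *Lifr* to 1.65 for *Socs3*, with adjusted p from 0.156 to 0.586 by edgeR's quasi-likelihood test. Without WT IR replicate 2, 3 members passed (*Il6ra*, *Osmr* and *Stat3*). Adipocyte markers differ among the libraries of this term as given above, and with their level as a covariate the *Il6ra* interaction was 3.83 with an adjusted p = 0.057. Without WT baseline replicates 2 and 3 it was 3.41 (adjusted p = 0.104), and without these and Tet2-/- IR replicate 3 it was 3.69 (adjusted p = 0.0797).

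*Lifr*, which encodes the LIF receptor (NM_013584, chr15:7090542-7147489, plus strand), went the other way. Its FPKM was 6.35, 6.01 and 5.89 in WT baseline and 5.89, 5.19 and 5.31 in the labelled Tet2-/- baseline libraries. IR libraries had 5.34, 4.87 and 3.85 in WT and 4.05, 4.44 and 3.19 in the labelled Tet2-/- libraries, each group below its own baseline. *Lifr* fell by 0.75 on the log2 scale in the labelled Tet2-/- kidneys (SE 0.12, adjusted p = 0.00249, edgeR quasi-likelihood F test). In WT kidneys the log2 change was −0.45 (SE 0.12, adjusted p = 0.0887). After IR the genotypes differed by −0.37 (SE 0.13, adjusted p = 0.13), and at baseline by −0.07 (SE 0.10, adjusted p = 0.778). Limma on log2(FPKM + 1) gave an adjusted p = 0.0531 for the fall in the labelled Tet2-/- kidneys. Proximal tubule markers moved with it, with a sum of 3838 to 4471 FPKM in the labelled Tet2-/- baseline and 862 to 1505 FPKM in the labelled Tet2-/- IR libraries. In the same comparison 5 of the 8 markers fell (all genes 20.3%), and their part in the fall of *Lifr* was not tested. In bulk tissue fewer cells of a type and less RNA per cell cannot be told apart.

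A shorter *Lifr* transcript of 2825 bases (NM_001113386), against 9641 bases for the one above, is listed too. Its FPKM was 9.42, 8.85 and 9.69 in WT baseline, 9.33, 8.59 and 8.93 in the labelled Tet2-/- baseline, 7.04, 7.37 and 6.08 in WT IR and 4.63, 5.10 and 4.13 in the labelled Tet2-/- IR libraries. The ratio of the short to the long transcript had medians of 1.48, 1.66, 1.51 and 1.15 in these groups. It was lower in every Tet2-/- IR library (1.14 to 1.29) than in any other library (1.32 to 1.68). Reads on shared exons were counted for each transcript, so the ratio is not that of the isoforms themselves, and it was not tested.

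*Stat3* encodes the transcription factor on which these receptors converge (NM_213659, chr11:100748120-100800854, minus strand). WT baseline libraries held 10.9, 8.98 and 11.99 FPKM, and the labelled Tet2-/- baseline libraries 9.34, 10.54 and 8.04 FPKM. After IR it was 16.0, 32.9 and 22.6 in WT and 52.0, 41.4 and 42.5 in the labelled Tet2-/- libraries. Each IR group lay above both baseline groups, and the labelled Tet2-/- IR libraries lay above WT IR. *Stat3* rose by 2.03 on the log2 scale in the labelled Tet2-/- kidneys (SE 0.17, adjusted p = 0.00021 by the edgeR quasi-likelihood F test). In WT kidneys the log2 fold change was 1.10 (SE 0.27, adjusted p = 0.077), or 1.05 with an adjusted p = 0.0468 with the replicate block. The genotypes differed by 0.84 after IR (SE 0.26, adjusted p = 0.0886) and by −0.10 at baseline (SE 0.15, adjusted p = 0.774).

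*Socs3*, the feedback inhibitor whose upstream window holds the STAT palindrome printed above (NM_007707, chr11:117827401-117830680, minus strand), spread widely in WT kidneys after IR. Baseline FPKM was 0.929, 0.821 and 0.742 in WT and 0.66, 1.09 and 0.502 in the labelled Tet2-/- libraries. In IR libraries it was 1.19, 12.8 and 5.61 in WT and 22.5, 26.1 and 14.04 in the labelled Tet2-/- libraries. WT IR replicate 1 lay just above the baseline libraries, and the labelled Tet2-/- IR libraries exceeded all others. The rise in the labelled Tet2-/- kidneys was 4.52 on the log2 scale (SE 0.34, adjusted p = 0.000143, edgeR quasi-likelihood F test). In WT kidneys the log2 fold change was 2.91 (SE 0.75, adjusted p = 0.0855). Between the genotypes it was 1.58 after IR (SE 0.70, adjusted p = 0.19) and −0.06 at baseline (SE 0.30, adjusted p = 0.941). Without WT IR replicate 2 the WT log2 fold change was 2.07 (adjusted p = 0.197) and the genotype difference after IR 2.40 (adjusted p = 0.0929), and without WT IR replicate 1 that difference was 1.08 (adjusted p = 0.162, edgeR quasi-likelihood F test).

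WT IR replicate 1 was the lowest of the WT IR libraries for *Il6*, *Il11*, *Lif*, *Clcf1*, *Stat3* and *Socs3*. Without it, *Il11*, *Lif*, *Clcf1*, *Stat3* and *Socs3* passed as higher after IR in WT kidneys, with log2 fold changes from 1.34 to 4.91 and adjusted p from 0.0107 to 0.0467 (edgeR's quasi-likelihood test, with 2 WT IR libraries). With the replicate block, 3 members passed (*Lif*, *Clcf1* and *Stat3*). In the labelled Tet2-/- kidneys the counts stayed at 9 higher and 1 lower with any of the 6 libraries left out.

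On the FPKM scale the members' order of levels differed among the groups. In WT baseline kidneys the highest means were *Il6st* (15.9 ± 2.78 FPKM), *Stat3* (10.6 ± 1.53) and *Lifr* (6.08 ± 0.237), and *Lif* (0.0797 ± 0.0083) and *Il11* (0.066 ± 0.0335) were the lowest above 0 (SD, n = 3). In the labelled Tet2-/- baseline *Stat3* (9.31 ± 1.25 FPKM), *Il6st* (9.29 ± 1.22) and *Lifr* (5.46 ± 0.377) were highest (SD, n = 3). In WT IR these were *Stat3* (23.8 ± 8.48 FPKM), *Il6st* (18.1 ± 5.27) and *Clcf1* (8.34 ± 4.04, SD, n = 3). *Stat3* and *Il6st* overlapped in both of these groups. In the Tet2-/- IR group *Stat3* (45.3 ± 5.84 FPKM), *Clcf1* (29.5 ± 1.33) and *Socs3* (20.9 ± 6.2) were highest, the latter overlapping *Il6st* (18.9 ± 4.47), while *Il6* (1.38 ± 0.896) and *Il6ra* (1.05 ± 0.433) were lowest and overlapped (SD, n = 3). From the lowest to the highest group mean, the order was WT baseline, Tet2-/- baseline, WT IR and Tet2-/- IR for *Il6*, *Il11*, *Lif*, *Clcf1* and *Osmr*. The step from WT IR to Tet2-/- IR was without overlap for all of these except *Lif*, and the step from Tet2-/- baseline to WT IR overlapped for all except *Lif*.

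Markers of neutrophils, which are white blood cells that enter injured tissue, moved with the genes above. Their summed level (8 genes) was 0.65 to 2.44 FPKM in WT baseline, 1.9 to 3.03 in the labelled Tet2-/- baseline, 4.08 to 9.55 in WT IR and 75.0 to 133 FPKM in the labelled Tet2-/- IR libraries. The study picked *S100a8* and *S100a9*, which are in this list, from these libraries. All 7 markers tested were higher in the labelled Tet2-/- IR libraries than in their baseline (all genes 22.9%) and than in WT IR (all genes 3.51%). Of these, *Cxcr2*, *Ngp* and *Retnlg* passed the filter on low counts only in comparisons that hold the labelled Tet2-/- IR libraries. Their calls are thus not independent of their level there. The untested marker, *Camp*, had 0.045, 0.106 and 0.242 FPKM in the labelled Tet2-/- baseline and 0.091, 0.269 and 0 FPKM after IR. Macrophage markers (9 genes) summed to 27.6 to 62.9 FPKM in WT IR and 30.6 to 199 FPKM in the labelled Tet2-/- IR libraries, with replicate 2 highest. Of these, 2 of 9 tested rose and 1 fell after IR in the labelled Tet2-/- kidneys (all genes 22.9% and 20.3%), and 1 was higher than in WT IR (all genes 3.51%). *Itgam*, the only macrophage marker above WT IR without overlap, encodes CD11b, which the study also picked from these libraries. Lymphocyte markers (7 genes) were low, with sums of 1.03 to 1.45 FPKM in WT baseline and, without overlap, 0.32 to 0.64 FPKM in WT IR. They summed to 0.97 to 2.28 FPKM in the labelled Tet2-/- baseline and 0.17 to 1.51 FPKM in the labelled Tet2-/- IR libraries. After IR 0 of 6 tested were called lower in WT kidneys (all genes 1.14%) and 1 of 7 in the labelled Tet2-/- kidneys (all genes 20.3%). Fibroblast markers (7 genes) and endothelial markers (6 genes) had overlapping sums in WT IR (11.2 to 55.9 and 11.7 to 60.9 FPKM) and in the labelled Tet2-/- IR libraries (13.3 to 74.7 and 51.4 to 104 FPKM), and distal tubule markers (7 genes) did too (1744 to 2353 and 673 to 3073 FPKM). Proximal tubule markers (8 genes) summed to 2516 to 3267 FPKM in WT IR and 862 to 1505 FPKM in the labelled Tet2-/- IR libraries, where 4 of the 8 were lower (all genes 6.17%). The part of these cell types in the members' levels was not tested.

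**Figure D3:**
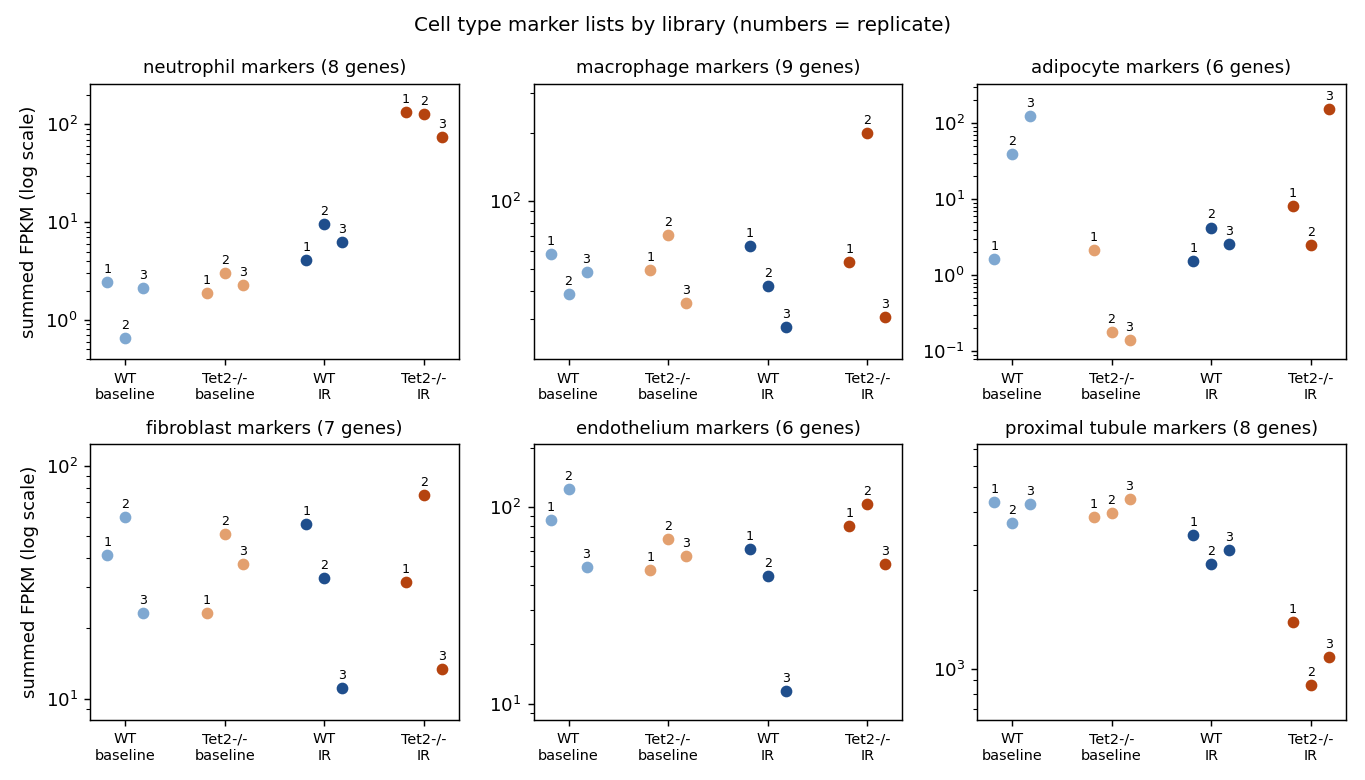
Summed FPKM (log axes) of 6 lists of cell type markers, with a point per library and the replicate number beside it. Neutrophil markers are highest in the 3 Tet2-/- IR libraries, proximal tubule markers are lowest there, and adipocyte markers are high in WT baseline replicates 2 and 3 and Tet2-/- IR replicate 3.

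The other ligands and receptors of the family are 12 genes. In the labelled Tet2-/- kidneys IR raised 1, *Osm*, and lowered 3 of the 9 tested (all genes 22.9% and 20.3%), with a median log2 fold change of −0.45 (all genes 0.04). *Osm*, which encodes oncostatin M, a cytokine of leukocytes, was low throughout but higher in the labelled Tet2-/- IR libraries (0.243 ± 0.049 FPKM) than in WT IR (0.04 ± 0.0234 FPKM, SD, n = 3 each, log2 fold change 2.45, adjusted p = 0.0269, edgeR quasi-likelihood F test). Against the labelled Tet2-/- baseline (0.0277 ± 0.0215 FPKM, SD, n = 3) it rose by 2.92 on the log2 scale (adjusted p = 0.00713 from the same test). It was the only gene of this list called between the genotypes after IR, of 8 tested (all genes 3.51% higher and 6.17% lower). *Osm* passed the filter on low counts only in comparisons that hold the labelled Tet2-/- IR libraries (39.5, 67.5 and 48 counts, against 3.5, 11 and 4 in WT IR). Its calls are thus not independent of its level there. The 3 that fell were receptor chains, namely *Il11ra1*, which binds IL-11 (from 40.8 ± 0.817 to 21.2 ± 4.05 FPKM, SD, n = 3 each, log2 fold change −1.21, adjusted p = 0.00112), *Il11ra2* (−1.36, adjusted p = 0.0386) and *Cntfr* (−1.47, adjusted p = 0.0292). *Il11ra1* and *Il11ra2* are close paralogs, so their counts are uncertain where reads are shared. *Osm*, *Il11ra2* and *Cntfr* fall outside the rule by which genes were named and were chosen after their values were seen. In WT kidneys after IR 0 of 7 passed edgeR's quasi-likelihood test (all genes 1.88% and 1.14%), with 2 lower at a raw p under 0.05, 1 lower by DESeq2 and 0 by limma. At baseline 0 of 7 passed (all genes 0.0124% and 0.0%), with 0 at a raw p under 0.05 and 0 by DESeq2 or limma.

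Kinases, other STATs, adaptors and inhibitors of the pathway (21 genes, all tested) had mostly small fold changes. In the labelled Tet2-/- kidneys 6 rose and 4 fell after IR (all genes 22.9% and 20.3%), with a median log2 fold change of 0.17 (all genes 0.04). *Jak1*, the kinase bound to gp130, rose from 14.3 ± 2.16 to 28.9 ± 3.90 FPKM (SD, n = 3 each, log2 fold change 0.75, adjusted p = 0.00734 by the edgeR quasi-likelihood F test). *Ptpn11*, which encodes the phosphatase SHP2 that binds gp130, rose from 10.6 ± 1.13 to 24.8 ± 1.95 FPKM (SD, n = 3 each, 0.97, adjusted p = 0.00143). The adaptor *Grb2* (0.58, adjusted p = 0.014) and the inhibitor *Socs6* (0.52, adjusted p = 0.0321) rose less, and *Socs1*, another SOCS inhibitor, was called at a low level (0.209 ± 0.0342 to 0.687 ± 0.281 FPKM, SD, n = 3 each, 1.43, adjusted p = 0.0205). The call of *Socs6* was lost with 1 library left out in all cases except IR replicate 2 (adjusted p up to 0.106), and that of *Grb2* without baseline replicate 1 or 3 (up to 0.0539). *Socs1* falls outside the rule by which genes were named and was chosen after its values were seen. *Gab1*, an adaptor downstream of SHP2, fell from 6.81 ± 0.675 to 4.61 ± 0.656 FPKM (SD, n = 3 each, −0.83, adjusted p = 0.0027). It was also lower than in WT IR (6.54 ± 0.561 FPKM, SD, n = 3, log2 fold change −0.61, adjusted p = 0.0306), and this call was lost with any 1 library left out (adjusted p from 0.0522 to 0.109). It was the only gene of the 21 called between the genotypes after IR (all genes 3.51% higher and 6.17% lower). In WT kidneys after IR 0 of 21 passed edgeR's quasi-likelihood test (all genes 1.88% and 1.14%), with 3 higher and 2 lower at a raw p under 0.05, 2 higher by DESeq2 and 0 by limma. At baseline 0 of 21 passed (all genes 0.0124% and 0.0%), with 1 higher at a raw p under 0.05 and 0 by DESeq2 or limma.

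Among genes known as STAT3 targets or as acute phase genes (30 genes), some changed in each genotype after IR. In WT kidneys 9 of 28 tested were higher and 2 were lower (all genes 1.88% and 1.14%), with a median log2 fold change of 0.19 (all genes −0.03). In the labelled Tet2-/- kidneys 19 of 29 were higher and 4 lower (all genes 22.9% and 20.3%), with a median of 1.14 (all genes 0.04). *Lcn2*, which encodes the secreted iron-siderophore carrier lipocalin-2 and is used as a kidney injury marker, had 74.2, 476 and 158 FPKM in WT IR and 1923, 1849 and 908 FPKM in the labelled Tet2-/- IR libraries, against 1.19 to 4.24 FPKM at baseline. Its log2 fold change after IR was 6.17 in WT kidneys (SE 0.76, adjusted p = 0.0135, edgeR quasi-likelihood F test) and 9.13 in the labelled Tet2-/- kidneys (SE 0.55, adjusted p = 8.15e-05). *Timp1*, an inhibitor of matrix metalloproteinases, rose by 4.56 (adjusted p = 0.0151) and 6.67 (adjusted p = 0.000464). The fibrinogen chain *Fgg* rose by 4.79 (adjusted p = 0.0427) and 7.17 (adjusted p = 0.00084), and *Fgb* by 10.55 in the labelled Tet2-/- kidneys (adjusted p = 0.000771). In WT kidneys the calls of *Lcn2* and *Timp1* were lost without any of the 3 baseline replicates (adjusted p up to 0.0642 and 0.0622 by the same test), and that of *Fgg* without any of these or without IR replicate 2 or 3 (up to 0.146).

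*Saa1* and *Saa2*, acute phase serum amyloid genes with near-identical sequence, have uncertain counts for that reason. *Saa1* was at 0 counts in the 3 labelled Tet2-/- baseline libraries and averaged 9.08 FPKM after IR, at least 178-fold over the floor of 3 counts per library. In WT kidneys *Saa1* had 0, 0 and 1.5 counts at baseline and 191, 277.5 and 507 counts after IR, and it was higher (adjusted p = 0.00842, edgeR quasi-likelihood F test). *Saa3*, a related amyloid gene of macrophages and epithelia, had 0.219, 0.242 and 0.4 FPKM in WT IR and 10.3, 13.3 and 11.2 FPKM in the labelled Tet2-/- IR libraries. The genotypes differed by 5.22 after IR (SE 0.37, adjusted p = 0.00749), and *Saa3* rose in the labelled Tet2-/- kidneys (adjusted p = 7.79e-05), where the baseline libraries held 1, 0 and 0.5 counts, too few for a fold change.

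Some targets fell after IR. *Bcl6*, a transcriptional repressor, was lower in WT kidneys (from 22.6 ± 4.02 to 5.05 ± 2.03 FPKM, SD, n = 3 each, log2 fold change −2.23, adjusted p = 0.0152 by the edgeR quasi-likelihood F test) and in the labelled Tet2-/- kidneys (−1.13, adjusted p = 0.00594). The kinase gene *Pim3* was lower in both genotypes too (−1.50, adjusted p = 0.0246 and −1.37, adjusted p = 0.031). The WT call of *Bcl6* was lost without WT baseline replicate 1 or 3 or WT IR replicate 3 and that of *Pim3* without WT baseline replicate 1 or 2 or WT IR replicate 2 or 3 (adjusted p up to 0.0586 and 0.11 by the same test). The *Pim3* call in the labelled Tet2-/- kidneys was lost without any of the 3 baseline replicates or IR replicate 1 (adjusted p up to 0.0869). *Vegfa*, which encodes an endothelial growth factor made by tubule cells and podocytes, fell in the labelled Tet2-/- kidneys (−1.41, adjusted p = 0.000605), as did *Zfp36*, whose protein destabilises cytokine transcripts (−1.23, adjusted p = 0.0049).

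After IR 3 of 29 targets were higher in the labelled Tet2-/- libraries than in WT, *Saa3*, *Timp1* and *Il4ra*, and 1, *Vegfa*, was lower (all genes 3.51% and 6.17%). At a raw p under 0.05 by edgeR's quasi-likelihood test 12 were higher and 1 lower, and DESeq2 called 9 higher and 1 lower. Limma called 5 higher and 0 lower on log2(FPKM + 1), and 6 higher and 1 lower on log2(FPKM + 0.1). *Il4ra*, a receptor chain for IL-4 and IL-13, had 3.65, 4.63 and 2.93 FPKM in WT IR and 7.96, 8.44 and 6.55 FPKM in the labelled Tet2-/- IR libraries (log2 fold change 0.94, SE 0.15, adjusted p = 0.0175, and up to 0.0696 with 1 library left out, edgeR quasi-likelihood F test). *Timp1* passed narrowly (2.50, adjusted p = 0.0494, and up to 0.149 with 1 library left out), and *Vegfa* was lower by a log2 of −0.73 (adjusted p = 0.0324), a call that was lost with any 1 library left out (adjusted p from 0.0516 to 0.11). At baseline 0 of 25 targets passed the same test (all genes 0.0124% and 0.0%), with 2 higher and 4 lower at a raw p under 0.05, 3 lower by DESeq2 and 0 by limma.

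**Figure D4:**
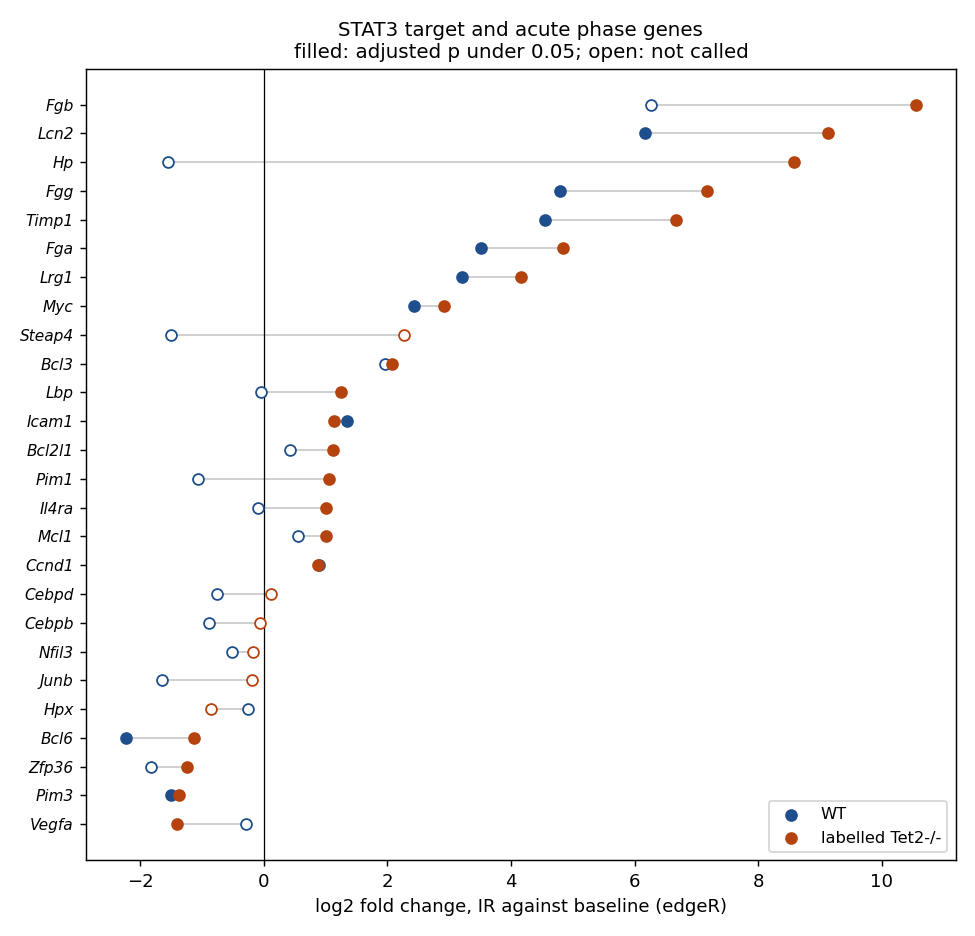
Log2 fold change after IR against baseline (horizontal axis, edgeR) of the 26 STAT3 target and acute phase genes tested in both genotypes and at 0 counts in no group of libraries, in WT (blue) and in the labelled Tet2-/- kidneys (red). Filled points passed an adjusted p of 0.05. Fgb, Lcn2 and Fgg have the largest values in WT (6.26, 6.17 and 4.79), and Fgb, Lcn2 and Hp in the labelled Tet2-/- kidneys (10.55, 9.13 and 8.57). The value of Hp rests on Tet2-/- IR replicate 3, which had 249 FPKM against 3.70 and 6.37 FPKM in replicates 1 and 2.

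For *Socs3*, *Osmr* and *Il6* the genes with the most similar course over the 12 libraries were sought among 13470 genes. These had a mean of at least 0.5 FPKM over the 12 libraries. Likeness was the root mean square difference of log2(FPKM + 0.1) after each gene was centred on its own mean. The 3 nearest to *Socs3* were *Sox9* (0.436), a transcription factor of regenerating tubule cells, *Hmox1* (0.455), which encodes heme oxygenase 1, and *Ankrd1* (0.455). The nearest to *Osmr* were *Elf4* (0.306), *Inf2* (0.307) and *Arid5a* (0.323). The nearest to *Il6* were *Wfdc21* (0.369), *Fpr2* (0.443), a receptor for formyl peptides on neutrophils, and *Stfa2l1* (0.489). These 3 averaged 1.97 to 2.32 FPKM in Tet2-/- IR and at most 0.164 FPKM in the other groups, so they passed the limit of 0.5 only through Tet2-/- IR. *Il6* itself was at most 0.101 FPKM in the other groups, near or under the 0.1 added before logs. This likeness therefore describes little beyond a low level outside Tet2-/- IR. The mean level of *Sox9* was 0.077, 0.05, 1.0 and 4.43 FPKM and that of *Hmox1* 13.1, 18.8, 85.7 and 396 FPKM in WT baseline, Tet2-/- baseline, WT IR and Tet2-/- IR libraries. The libraries share the injury and the differences in cell types given above, so likeness is a description without a test.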

How the data were processed

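STAR (alignment, mm9), HOMER (counting per RefSeq transcript) and edgeR are the tools of the authors, in versions not given in the sources used here. The authors deposited 1 table of estimated counts, made by this counting without normalization, and 1 table of FPKM, in which the counts are divided by transcript length and library size. Since 38.7% of the deposited counts hold a fraction (0.5), they were rounded before the count tests, although the design had assumed whole counts. Of 34600 transcripts the one with the highest total was kept for each of 24421 symbols. It held from 33.4% to 100% of the summed counts of the member's transcripts, since reads on shared exons are counted for each. Whole libraries held 81689249 to 172303418 counts over all transcripts.

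Groups of 3 libraries were compared with edgeR 4.0.16 in R 4.3.3 (TMM, filterByExpr, quasi-likelihood F test, Benjamini-Hochberg over all genes tested). Standard errors are the fold change divided by the root of F. The interaction was fitted over the 12 libraries. Alternatives used DESeq2 1.42.0, limma 3.58.1 on log2(FPKM + 1) and log2(FPKM + 0.1), other scalings and filters, a sum of transcripts, the replicate block, an adipocyte covariate, and each library left out. The fits were tested on simulated data. A DESeq2 adjusted p that was not given was left out. One gene of the family is not reported here.

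Each library is a separate mouse. Same-numbered libraries of 1 genotype nevertheless deviated together from their group means, baseline against IR (correlations 0.349, 0.349 and 0.344 in WT and 0.12, 0.35 and 0.202 in the labelled Tet2-/- libraries). Nothing else pairs them, and for IR against baseline and the interaction, blocked values stand beside the members' results that they change.

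All 10 members are named. From the other lists up to 4 genes in each direction per comparison were named, by log2 fold change among those with an adjusted p under 0.05, a mean of at least 1 FPKM in either group and no overlap. The members and lists were chosen with earlier results of these data known. Motifs were searched in the genome of the same build. Python 3.11.15 and matplotlib 3.10.9 drew the figures.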

Additional observations from a re-analysis of the deposited data

Results flagged for a closer look

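Each of the following was flagged because the IR effect differed between the genotypes by the interaction term of edgeR's quasi-likelihood test (adjusted p under 0.05). Values are the log2 change after IR in the labelled Tet2-/- kidneys minus that in WT kidneys. The term was 3.21 for *Il6ra* (adjusted p = 0.0187) and 2.10 for *Socs1* (adjusted p = 0.0473).

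Among the STAT3 target and acute phase genes it was 2.16 for *Pim1* (adjusted p = 0.01), 8.70 for *Saa3* (adjusted p = 0.00128) and 10.16 for *Hp* (adjusted p = 0.0217). The value of *Saa3* rests on 1, 0 and 0.5 counts in the labelled Tet2-/- baseline libraries, so its size depends on the count added before logs and is no measure of a fold (7.94 to 10.62 with 1 library left out). The value of *Hp* was 5.87 without Tet2-/- IR replicate 3 (adjusted p = 0.0204), whose 249 FPKM stood against 3.70 and 6.37 FPKM in the other replicates, and 2.96 without this library and WT baseline replicates 2 and 3. It was 2.99 for *Lcn2* (adjusted p = 0.0463), 1.14 for *Il4ra* (adjusted p = 0.00856) and −1.09 for *Vegfa* (adjusted p = 0.00937), by the same test. The *Lcn2* term was 3.94 without WT IR replicate 2 (adjusted p = 0.00702) and 2.56 without WT IR replicate 1 (adjusted p = 0.0645). In this list 5 of 27 genes passed as higher and 1 as lower (all genes 3.79% and 5.39%).

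*Tet2* had −2.00 (adjusted p = 0.0285). Its mean went from 7.58 to 5.72 FPKM in WT and from 12.1 to 2.53 FPKM in the labelled Tet2-/- kidneys.

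Without WT baseline replicates 2 and 3, or without these and Tet2-/- IR replicate 3, each of these 9 terms kept its sign and missed the adjusted p of 0.05, and with the adipocyte covariate all but that of *Saa3* did. Of the 25 alternatives tried for each (24 for *Socs1* and *Hp*), the call was lost in 15 for *Socs1*, 13 for *Lcn2*, 9 for *Tet2*, 8 for *Hp*, 3 each for *Il6ra*, *Pim1*, *Il4ra* and *Vegfa*, and 2 for *Saa3*.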

How the results depend on the processing

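Over 84 gene results and 1649 alternative values, 1440 kept their direction and side of the threshold, 151 lost the call, 42 gained it and 16 changed sign. The 10 counts of members gave 208 alternative values, of which 179 stayed within 1.5 times the count.

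In WT kidneys after IR, where 0 members were called, DESeq2 called 5 higher and 1 lower, a fit of all 12 libraries 4 and 1, no filter 1 higher, the replicate block 3 higher, and leaving out 1 library 0 to 5 higher (5 without WT IR replicate 1). In the labelled Tet2-/- kidneys 0 members were called lower with limma on log2(FPKM + 1) or with the fold limit. At baseline DESeq2 called 2 lower. Between the genotypes after IR, where 3 were called higher, it was 6 with DESeq2, 5 with all 12 libraries (and 1 lower), 5 with the block (*Osmr* 1.49, adjusted p = 0.0345, and *Il6ra* 2.08, adjusted p = 0.0295, among these), 1 with the adipocyte covariate, and 0 to 2 with 1 library left out. The 1 interaction call became 2 with DESeq2, library sizes alone or the block, 3 with limma at either pseudocount, 1 to 3 with 1 library left out, and 0 with the adipocyte covariate, without WT baseline replicates 2 and 3, or without the 3 libraries highest in adipocyte markers, the last of which was chosen after seeing the data.

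Sign changes were all of values that had not passed. In WT kidneys *Osmr* ranged from −0.10 to 0.80 and *Il6st* from −0.077 to 0.28 with 1 library left out. At baseline *Osmr* ranged from −0.27 to 0.43, *Stat3* from −0.21 to 0.003 and *Socs3* from −0.43 to 0.16 with 1 left out, and *Osmr* was −0.32 with the adipocyte covariate and −0.029 without WT baseline replicates 2 and 3. After IR *Il6st* between the genotypes was 0.073 with library sizes alone, 0.002 with the upper quartile, 0.072 and 0.076 with limma (pseudocounts 1 and 0.1), 0.065 with the covariate and −0.15 to 0.18 with 1 left out. The cause was not tested.

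Over all genes, IR in WT kidneys gave 301 higher and 182 lower genes, against 1112 and 888 with DESeq2, 659 and 406 with all 12 libraries, 659 and 829 with the block and 0 and 0 with the adipocyte covariate. Leaving out 1 WT baseline library left 41 to 74 higher and 46 to 53 lower, and leaving out 1 WT IR library 62 to 466 and 37 to 222. At baseline the 2 higher and 0 lower genes became 77 and 460 with DESeq2. After IR the 568 and 999 became 1441 and 1795 with DESeq2, 1353 and 1728 with all 12 libraries, 157 and 305 with the covariate and 70 to 411 and 250 to 789 with 1 left out. The interaction's 634 and 902 became 1222 and 1593 with DESeq2, 1023 and 1077 with the block, 27 and 58 with the covariate, 2 and 8 without WT baseline replicates 2 and 3, and 147 to 980 and 485 to 1064 with 1 left out. Same-numbered libraries of the genotypes do not pair throughout (correlations −0.173, −0.15 and 0.052 at baseline and 0.0, 0.206 and 0.303 after IR). Where values are low, as for *Il6* outside the Tet2-/- IR group, depth limits what could be detected.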

Other observations

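In the Tet2-/- IR group the libraries did not rank alike for the cytokine genes and for the acute phase genes *Fgb* and *Hp*. Replicate 3 was the lowest for *Il6* (0.607 FPKM), *Il11* (1.51 FPKM), *Lif* (1.18 FPKM), *Clcf1* (28.04 FPKM), *Socs3* (14.04 FPKM) and *Lcn2* (908 FPKM), and for the summed neutrophil markers (75.0 FPKM). The same library was the highest for *Fgb* (134 FPKM against 36.6 and 11.4) and for *Hp*, which encodes haptoglobin (249 FPKM against 3.70 and 6.37), and it held the adipocyte markers. In the WT IR group replicate 2 was the highest for *Il11*, *Lif*, *Clcf1*, *Osmr*, *Stat3* and *Socs3*, and also for *Fgb* (48.3 FPKM against 3.48 and 14.7) and *Lcn2* (476 FPKM against 74.2 and 158), and its neutrophil markers summed to 9.55 FPKM against 4.08 and 6.28 FPKM.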
